A study of Mus musculus with 11 samples.

Results

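The cytosolic ribosomal proteins were followed through 11 heart RNA libraries. Members were the protein-coding genes whose symbol is Rpl or Rps followed by a number (with or without a, x, l or al) or by p0 to p2 or a, and 81 of the 35584 genes in the deposited count table met this rule. Of these, 50 encode proteins of the large subunit and 31 proteins of the small subunit, and 79 were abundant enough to be tested. Hearts came from male mice of 8 to 12 weeks. The WT libraries (n = 3) came from wild-type mice that received diphtheria toxin 0.01 µg per g of body weight for 3 weeks. Macrophage-depleted libraries (n = 3) came from mice with the CD169-DTR allele, the toxin receptor driven by the locus of a macrophage surface protein, which received the same toxin and were depleted for 21 days. The Mertk-KO libraries (n = 2) came from knockouts of Mertk, a receptor with which macrophages take up dying cells, and the LXR-DKO libraries (n = 3) from double knockouts of the liver X receptors alpha and beta, per the labels. Whether the last 2 groups received toxin is not given in the labels, so genotype and toxin cannot be told apart in their comparisons with WT, and the allele and the depletion cannot be told apart in Macrophage-depleted. The labels do not state that every library is from its own mouse, so the p-values cover the spread between libraries, which may be technical.

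Each ribosome holds a fixed number of copies of each of these proteins on a scaffold of ribosomal RNA. Their genes lie scattered over the genome and are transcribed at high and similar rates, and their mRNAs usually begin with a run of pyrimidines (C or T in the DNA), the terminal oligopyrimidine or TOP motif, through which mTORC1 signalling controls their translation. In heart muscle, ribosome number sets much of the capacity for protein synthesis and rises during growth. Ribosomal protein mRNAs are short, and the mouse genome carries many processed pseudogenes copied from them. Both properties bear on how they are counted.

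RefSeq promoters (GRCm38.p6) were found for 61 of the 81 members. A run of at least 8 bases of C and T, in any order, within 25 bases of a RefSeq start on the transcribed strand was present in 32 of the 61 (52.5%), against 22.3% of the 27025 genes in the promoter table and 24.6% of 69 mitochondrial ribosomal protein genes. On the other strand the run was present in 8.20% of the members and 24.4% of all genes. A run near the start need not be where the mRNA begins, so it is not by itself a TOP motif. Counted from the RefSeq start, the run begins at -14 in Rpl7a, -4 in Rpl27a, -3 in Rps10, -1 in Rps6 and 1 in Rpl18. The starts below show the longest run in capitals, and include 2 members without a long run. All are from GRCm38.p6 and written 5′ to 3′ on the transcribed strand.
Rpl18, chr7:45718062-45718091, plus strand: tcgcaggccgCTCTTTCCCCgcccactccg
Rpl7a, chr2:26910788-26910817, plus strand: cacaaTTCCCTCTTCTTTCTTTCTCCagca
Rpl27a, chr7:109519186-109519215, plus strand: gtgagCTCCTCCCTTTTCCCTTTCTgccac
Rps6, chr4:86857349-86857378, minus strand: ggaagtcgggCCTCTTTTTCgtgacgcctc
Rps10, chr17:27635227-27635256, minus strand: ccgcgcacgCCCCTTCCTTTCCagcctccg
Rps13, chr7:116334166-116334195, minus strand: gtcggtgagtggcgtcaCTTCCTgtgcggc
Rpl3l, chr17:24727821-24727850, plus strand: gctctgtcatttgaCCTCTggtgcctggtg
The run is 21 bases long in Rpl7a, 20 in Rpl27a, 13 in Rps10 and 10 in Rpl18 and Rps6, and only 6 in Rps13 and 5 in Rpl3l, the paralog of Rpl3 made in striated muscle. Members with a run of at least 8 bases and members without one differed from WT by similar amounts: the median log2 difference was 0.33 (31 tested members) and 0.34 (28) in Mertk-KO, 0.23 and 0.26 in LXR-DKO, and 0.07 and 0.10 in Macrophage-depleted.

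The level of each member was first compared per transcript length, as TPM (transcript abundance scaled by transcript length and library). The median member had a mean of 321 TPM over the 11 libraries. Rplp1, an acidic protein of the stalk that recruits elongation factors, was the highest at 802 TPM, followed by Rps29 at 754, Rpl41 and Rpl13a at 706 each, and Rps2 at 670. The lowest TPM values among members that were clearly present were those of Rpl12 (36.4), Rpl5 (44.6) and Rpl27 (74.8), but near-identical copies held 87.8%, 87.2% and 79.1% of the joint TPM of gene and copies. The count table gave Rpl12 and Rpl5 means of 1962 and 3731 normalised counts. In the libraries Rplp1 ranged from 660 to 1010 TPM and Rps29 from 653 to 1031, so neighbours at the top of this order overlapped. Rpl10l, a retrocopy of Rpl10 known from testis, had a mean of 0.00597 TPM and at most 1.41 normalised counts in a library. It lay under the 3-read floor of its library throughout.

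**Figure D1:**
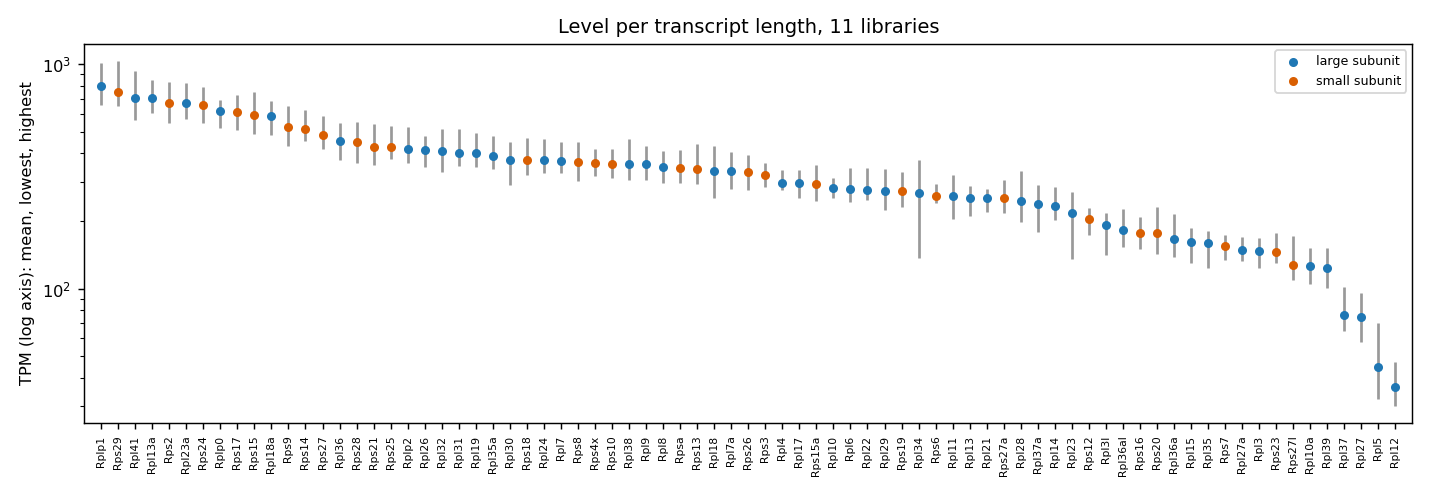
Level of ribosomal protein genes with a mean above 1 TPM in the deposited TPM table; the log axis gives TPM, points are means over the 11 libraries and grey lines run from the lowest to the highest library. Both subunits are mixed along the order, from Rplp1 at 802 TPM to Rpl12 at 36.4 TPM. Copies of Rpl12 hold 87.8% of the joint TPM. Rpl10l and Rpl39l lie below the range drawn, and some members above 1 TPM are not drawn.

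The 3 paralogs with a restricted pattern were at very different levels. Rpl3l, which replaces Rpl3 near the peptidyl transferase centre in striated muscle ribosomes, had a mean of 193 TPM and Rpl3 one of 148 TPM. The ratio of Rpl3l to Rpl3 in TPM was 1.27, 1.31 and 1.61 in WT, 1.36, 0.872 and 1.16 in Macrophage-depleted, 1.49 and 1.31 in Mertk-KO, and 1.23, 1.43 and 1.46 in LXR-DKO. Macrophage-depleted 2 was the only library in which Rpl3 exceeded Rpl3l, and the groups overlapped otherwise. Rpl39l, a paralog of the exit tunnel protein Rpl39 known from testis, was at 3.98 and 7.54 normalised counts in Mertk-KO. Its highest library was at 1.05 among WT, 1.44 among depleted and 3.62 among LXR-DKO hearts. A level worth 3 reads is 3.98 and 3.23 normalised counts in the 2 Mertk-KO libraries, so only Mertk-KO 2 was clearly above the floor, and the gene was too low to be tested. Rps27l, a paralog of Rps27 known as a target of p53, was at 128 TPM. Rpl36al and its paralog Rpl36a, both broadly made, were at 675 to 836 and 784 to 804 normalised counts in WT.

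Between 10938600 and 20722300 estimated reads were behind each library, and the members took 1.06% to 1.11% of the reads in WT, 1.09% to 1.23% in Macrophage-depleted, 1.22% and 1.36% in Mertk-KO, and 1.15% to 1.38% in LXR-DKO. Transcripts of the mitochondrial genome took 31.4% to 36.5%. The liver X receptor gene Nr1h2 was at 85.2 to 99.6 normalised counts in LXR-DKO and 525 to 543 in WT, and Nr1h3 was at 155 to 173 in WT and fell by 2.50 on the log2 scale. Siglec1, which encodes CD169, was at 53.4 to 64.3 in WT and at 33.8, 2.12 and 0.719 in Macrophage-depleted 1, 2 and 3 (limma adjusted p 0.178), so macrophage depletion was least in library 1 by this gene; the last 2 values lie at or under 3 reads. Mertk was at 75.7 and 89.4 in the libraries labelled Mertk-KO and 130 to 147 in WT (limma adjusted p 0.0408). It was also below WT in Macrophage-depleted (125, 93.3 and 75.4) and LXR-DKO (93.6, 103 and 100), without passing (limma adjusted p 0.439 and 0.364). The labels do not give the deleted part, so a value over the whole gene does not check them. All 10 cardiomyocyte markers were measured in every library.

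Most of the members moved as a block from library to library. Each tested member was set against its WT mean on the log2 scale, and the median over the 79 members was 0.04, -0.01 and -0.03 in the WT libraries. It was 0.13, -0.06 and 0.15 in Macrophage-depleted, 0.23 and 0.47 in Mertk-KO, and 0.24, 0.36 and 0.15 in LXR-DKO. Every Mertk-KO and LXR-DKO library was above all WT libraries, Macrophage-depleted 2 was below them, and Mertk-KO 2 stood highest, with all 79 members above the WT mean. The median over all genes tested lay within 0.02 of 0 in each library.

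**Figure D2:**
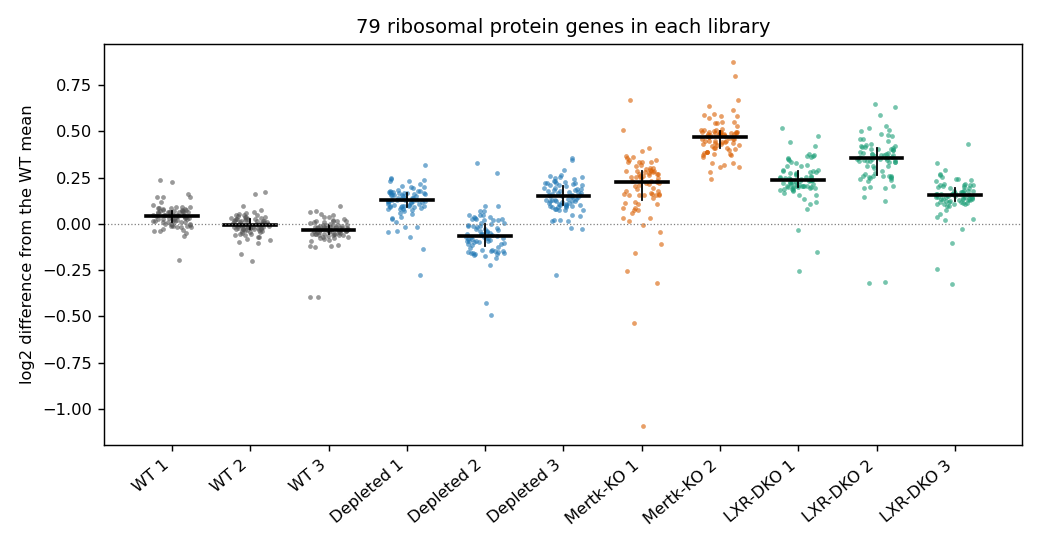
Difference of each of the 79 tested ribosomal protein genes from its WT mean, as log2 of the normalised count plus 1, by library; each point is a gene, thick bars are medians and thin lines run between the quartiles. The medians are between -0.03 and 0.04 in WT, 0.23 and 0.47 in Mertk-KO and 0.15 to 0.36 in LXR-DKO; the point at -1.09 is Rps12 in Mertk-KO 1.

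As a description of how members vary together over the 11 libraries, Rps18 followed the mean of the other members most closely (Pearson r = 0.99) and Rpl27 least (0.25), then Rps12 (0.31), Rpl10 (0.46), Rpl3 (0.48) and Rpl5 (0.48). Genes outside the list were ranked by the likeness of their log values to the members' mean, leaving out those without a symbol or named Gm and a number. The highest were Cox17, a copper chaperone for cytochrome oxidase (r = 0.98), Psma2 of the proteasome, Atp5l of ATP synthase, Uqcrh of respiratory complex III, and Tonsl of DNA repair (0.96 each). The libraries share depth and scaling within this measure.

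Depleted and WT hearts were compared first, for a change of ribosomal protein mRNA after loss of CD169-expressing macrophages. No member passed the test. Of the 79 tested, 70 were higher, with a median log2 difference of 0.08 against 0.00 over all genes, and 0 passed limma's adjusted threshold of 0.05 in either direction (0.238% of all genes passed it, 0.0792% higher and 0.158% lower). One member, Rpl3, had an unadjusted p below 0.05, and WT libraries held Rpl3 at 1978, 1900.5 and 1722 normalised counts and depleted ones at 1968, 2259 and 2385 (log2 difference 0.24, SE 0.09, limma adjusted p 0.559). Its groups overlapped. Every depleted library was above every WT library in 7 of 79 members, beside 8.51% of all genes, and below in 0, beside 8.15%. Rpl3l went the other way in 1 library, at 2934, 2053 and 2963 normalised counts after depletion and 2693 to 2887 in WT. The greatest negative difference, -0.35 in Rpl10, is in a gene that shares reads with a copy (described further on). The members' median was 0.15 without Macrophage-depleted 2, 0.05 without Macrophage-depleted 1 and 0.04 without Macrophage-depleted 3.

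The comparison of Mertk-KO with WT showed ribosomal protein mRNAs higher in both knockout libraries. Of the 79 members, 77 were higher, with a median of 0.33 against -0.01 over all genes, and 31 rose and 0 fell (limma, adjusted p below 0.05; 9.27% of all genes passed, 3.38% higher and 5.89% lower). The 31 were 19 of 48 tested large subunit genes and 12 of 31 small subunit genes, with medians of 0.33 in each subunit. Both Mertk-KO libraries were above all WT libraries in 66 members, beside 21.4% of all genes, and below in 0, beside 21.1%.

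After Rpl18, the 3 smallest p-values were in the small subunit genes Rps10, Rps13 and Rps15, and the next was in Rpl6 of the large subunit. Rps10, a protein of the small subunit head, was measured at 1751, 1686 and 1616 normalised counts in WT hearts and at 2124 and 2316 in Mertk-KO hearts (log2 difference 0.40, SE 0.08, limma adjusted p 0.0164). Rps13 was at 1734, 1624 and 1606 against 2087 and 2461 (0.45, SE 0.09, adjusted p 0.0194). Rps15 was at 2302, 2214 and 2183 against 2937 and 3364 (0.49, SE 0.10, adjusted p 0.0205). In these 3 genes, as in Rps16 (0.43) and the large subunit gene Rpl6 (0.33), which also rose, the Mertk-KO libraries did not overlap with WT. Of the stalk, Rplp0, its anchor, rose from 6526, 6477 and 6625 to 8165 and 8499 (0.35, SE 0.08, adjusted p 0.0295) and Rplp2 rose by 0.41 (adjusted p 0.0337), while Rplp1 did not pass (0.40, SE 0.12, adjusted p 0.0598). Rpsa, which sits on the small subunit head and is also known as a laminin receptor, rose from 3718 to 3860 in WT to 4792 and 5278 (0.41, SE 0.09, adjusted p 0.0267). Rps27l rose from 478, 527 and 497 to 617 and 731 (0.42, SE 0.12, adjusted p 0.0438), and Rps27 did not pass (0.37, adjusted p 0.0785). Rpl3l (0.26, adjusted p 0.214) and Rpl3 (0.22, adjusted p 0.197) did not pass either.

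The count of 31 depended on single libraries, as did the calls over all genes. Leaving out a WT library brought the count to 1 (WT 1) or 0 (WT 2 or WT 3). The share of all genes called higher then fell from 3.38% to 0.216%, 0.180% and 0.0936%, without WT 1, WT 2 and WT 3. The count was 20 without Macrophage-depleted 3 and 9 without LXR-DKO 1, beside 2.18% and 1.26% of all genes called higher. The TPM table gave 6, and the count was 8 with upper quartile scaling and 0 when only the 2 groups were fitted. With upper quartile scaling 1.35% of all genes were called higher and 5.77% lower. The median of the members was 0.47 without Mertk-KO 1 and 0.23 without Mertk-KO 2. Beside the greater shift in Mertk-KO 2, the 10 macrophage markers summed to 6941 normalised counts in that library and 4897 in Mertk-KO 1. The same sum was 3982 to 4681 over WT, 1275 to 2964 over depleted and 3270 to 4183 over LXR-DKO libraries. Lyz2 was 2594 of the sum in Mertk-KO 2. Of the 10 macrophage markers, 6 were above all WT libraries in both Mertk-KO libraries and 2 were below. Of all genes, 21.4% were above in this way and 21.1% below. The 2 markers below were Cd163 (198 and 153, beside 206 to 239 in WT) and Mrc1 (335 and 388, beside 433 to 522). The 5 B cell markers in the table summed to 6176 in Mertk-KO 2 and to 746 to 1799 elsewhere. Cd74, which other antigen-presenting cells also make, was 6135 of that sum, and Cd79a of the B cell receptor was at 10.8 there and 10.6 to 15.4 in WT. The 4 atrial markers summed to 2995 in Mertk-KO 1 and 1675 in Mertk-KO 2, with 3433 to 25595 over WT, 3155 to 6194 over depleted and 1611 to 17491 over LXR-DKO libraries. The part of these cells in the result was not tested, and in bulk tissue fewer cells of a type and less RNA per cell cannot be told apart. WT 1, with the most atrial RNA, had a member median of 0.04 and WT 3, with the least among WT, -0.03.

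Transcript length moved with the same libraries. The members' transcripts had a median length of 886 bases, against 3066 over all genes tested. The 609 other tested protein-coding genes with a transcript under 1000 bases had a median difference of 0.30 in Mertk-KO. Their median was 0.16 in LXR-DKO and -0.05 in Macrophage-depleted. In Mertk-KO 80 of them rose and 5 fell, beside 3.38% of all genes called higher and 5.89% called lower. Within the libraries, the rank correlation across genes between transcript length and the difference from WT, as a description over genes that are not independent, was -0.25 and -0.52 in Mertk-KO and -0.26, -0.39 and -0.15 in LXR-DKO. It was -0.04, 0.23 and 0.06 in Macrophage-depleted, so the 2 libraries with the steepest trend, Mertk-KO 2 and LXR-DKO 2, were also those with the highest member medians. With each library's trend on transcript length and GC content removed, the median of the members was 0.14 in Mertk-KO, 0.13 in LXR-DKO and 0.10 in Macrophage-depleted. After that step 3 members passed in Mertk-KO, Rpl18, Rps15a and Rps20, of which 1, Rpl18, was among the 31. Their annotated transcripts are long for members (2989, 5179 and 3706 bases), beside a member median of 886. The step moved Rpl18 from 0.55 to 0.48, Rps15a from 0.23 to 0.50 and Rps20 from 0.31 to 0.64 on the log2 scale. These values depend on the lengths assigned, and which transcript the hearts made was not tested. The annotated Rpl18 gene begins at 45715457, upstream of its RefSeq start shown above. Across members, the Mertk-KO difference was greater in transcripts with more GC (rank correlation 0.54 over 79 members) and smaller in longer ones (-0.35). The correlations with GC and length were 0.40 and -0.31 in LXR-DKO, and -0.04 and 0.03 in Macrophage-depleted.

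The genes that build, translate with or control ribosomes, from lists chosen for their function, had smaller medians than the members. Transcript length was not matched between these lists and the members, and its part in the contrast was not tested. The counts of these lists in Mertk-KO stand beside 3.38% of all genes called higher and 5.89% called lower. Those of the biogenesis and mTORC1 lists were no more than 1 gene in each direction. Of 48 ribosome biogenesis genes, Nop10 of the box H/ACA particles rose (0.37, limma adjusted p 0.0325) and Mdn1, the AAA ATPase of large subunit assembly, fell by 0.70 in Mertk-KO (adjusted p 0.0157), and the list's median was -0.01. Of 43 translation factors, 8 rose and 2 fell in Mertk-KO, with a median of 0.12. The risers included Eif5a (0.35, limma adjusted p 0.0213) and the eIF3 subunit Eif3i (0.42, adjusted p 0.0194), and the 2 that fell were Eif3j1 (-1.09, adjusted p 0.0242) and Eif3a (-0.54), the largest subunit of that complex. Of 22 TOP mRNAs outside the ribosome, 4 rose, with a median of 0.05: Eef1g, Eef1b2 and Eef1d of the elongation factor 1 complex and Eif3h, all of which are also among the translation factors. Of 29 genes of mTORC1 signalling, Lamtor1 rose (0.49, adjusted p 0.0235) and Deptor, an inhibitor of mTOR, fell by 0.52 (adjusted p 0.0285). None of these 4 lists had a gene past the threshold in LXR-DKO or Macrophage-depleted in limma's fit. At an unadjusted p below 0.05 there were 4, 12, 5 and 4 genes in LXR-DKO and 0, 2, 0 and 1 in Macrophage-depleted, in the same order of lists, beside 11.5% and 7.53% of all genes.

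Mitochondrial ribosomal proteins, which serve the separate ribosomes of that organelle, were also higher in Mertk-KO. There 76 of 78 were higher, with a median of 0.32. Of the 78, 22 rose, beside 3.38% of all genes called higher, led by Mrpl28 (0.54, limma adjusted p 0.0120), Mrpl14 (0.56, adjusted p 0.0120) and Mrps23 (0.43, adjusted p 0.0120). In LXR-DKO their median was 0.13 and in Macrophage-depleted -0.04, where 18 of 78 were higher. Of ribosomal genes that the symbol rule misses, Rack1 rose in Mertk-KO (0.40, limma adjusted p 0.0151), and Fau (0.74, adjusted p 0.0687) and Rps3a1 (0.18) did not pass.

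**Figure D3:**
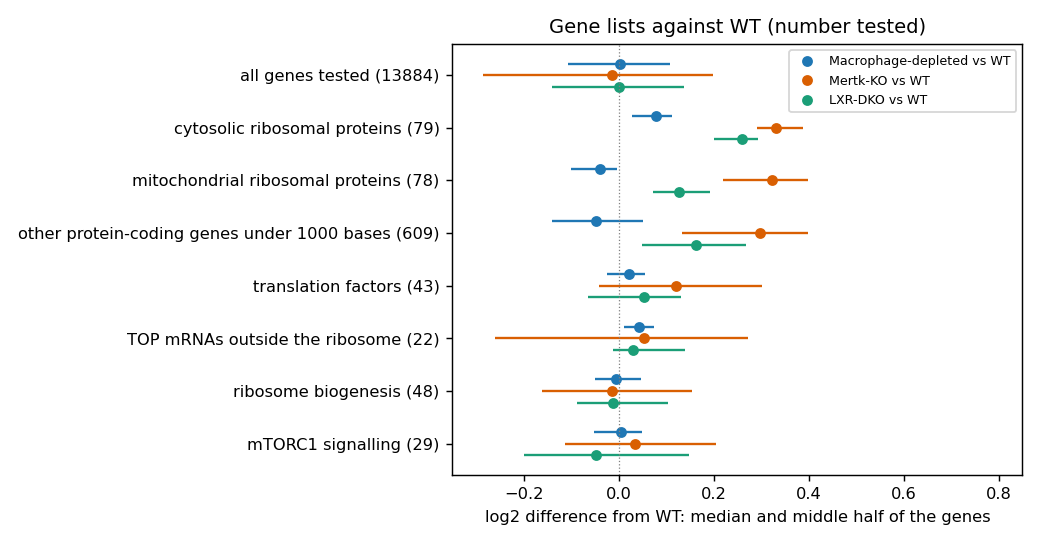
Log2 difference from WT of each gene list in the 3 comparisons, with the number of genes tested in brackets; points are medians over genes and lines run between the quartiles. Cytosolic ribosomal proteins lie at 0.08, 0.33 and 0.26 and other genes under 1000 bases at -0.05, 0.30 and 0.16 in Macrophage-depleted, Mertk-KO and LXR-DKO.

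The comparison of LXR-DKO with WT showed a shift of the members almost as wide but with a single gene past the test. Of the 79, 77 were higher, with a median of 0.26 against 0.00 over all genes, and 1, Rpl18, rose (limma, adjusted p below 0.05; 0.418% of all genes passed, 0.216% higher and 0.202% lower). An unadjusted p below 0.05 was reached by 59, beside 11.5% of all genes. All LXR-DKO libraries were above all WT libraries in 69 members, beside 12.0% of all genes, and below in 0, beside 10.7%. Large and small subunit medians were 0.26 and 0.25. After Rpl18 the greatest differences were in Rpl36 (1417, 1206 and 1230 normalised counts in WT against 1647, 1930 and 1608 in LXR-DKO; 0.43, SE 0.11, adjusted p 0.212) and Rpl41, the shortest ribosomal protein (2587, 2363 and 2566 against 3405, 3884 and 2764; 0.41, SE 0.12, adjusted p 0.255). Both sets of libraries were separate from WT and neither gene passed. With weights per library 32 members passed, Rpl18 among them, and the calls over all genes went from 58 to 593 (2.43% higher and 1.84% lower).

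Rpl18, a large subunit protein, lies 1.16 Mb from Nr1h2, one of the genes knocked out in LXR-DKO, at chromosome 7, 45715457 to 45720836 (GRCm38, plus strand; ENSMUSG00000059070). It was at 1767, 1712 and 1768 normalised counts in WT, 1965, 1575 and 1907 in Macrophage-depleted, 2489 and 2634 in Mertk-KO, and 2435, 2736 and 2364 in LXR-DKO. The Mertk-KO and LXR-DKO libraries were all above those of the other groups and overlapped each other. The difference from WT was 0.55 in Mertk-KO (SE 0.10, limma adjusted p 0.0146) and 0.52 in LXR-DKO (SE 0.09, adjusted p 0.0298), and that from Macrophage-depleted was also called (adjusted p 0.00856 and 0.0179). Mertk-KO and LXR-DKO differed by 0.03 (95% interval -0.19 to 0.25, adjusted p 0.902).

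Rpl18 exceeded the other members by 0.21 in Mertk-KO and 0.27 in LXR-DKO when libraries were scaled to the members, without passing (limma adjusted p 0.127 and 0.128). Over 27 alternatives its adjusted p ranged from 0.0131 to 0.0907 in Mertk-KO, past the threshold in 22, and from 0.00251 to 0.177 in LXR-DKO, past it in 16. The LXR-DKO call was lost without WT 1 (0.120), WT 2 (0.177), WT 3 (0.144), Macrophage-depleted 3 (0.0505), LXR-DKO 1 (0.0989), LXR-DKO 2 (0.173) or LXR-DKO 3 (0.0545). It was also lost in the TPM table (0.0644), in that table with copies summed (0.0687), without a filter on low values (0.0502) and with the replicate number as a block (0.0806). The Mertk-KO call was lost without WT 1 (0.0512), WT 2 (0.0557) or WT 3 (0.0599), with only the 2 groups (0.0797) and with weights per library (0.0907). Of its coding windows of 31 bases, 94.2% occur in other genes, and copies hold 0.379% of the joint TPM of Rpl18 and its copies. Sphk2, sphingosine kinase 2 (45709467 to 45718002), overlaps the annotated Rpl18 gene on the opposite strand. The overlap lies upstream of the RefSeq start of Rpl18 shown above (45718062 to 45718091). No source used here says whether strand was counted, so reads from the overlapping stretch may not be told apart. Sphk2 had 305, 239 and 217 normalised counts in the WT, 213, 138 and 166 in the depleted, 327 and 363 in the Mertk-KO and 390, 421 and 310 in the LXR-DKO libraries, and did not pass (0.56 in LXR-DKO, adjusted p 0.292).

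Rpl13a, also near Nr1h2, did not pass in LXR-DKO. It lies 0.572 Mb away, is known outside the ribosome as a translational silencer, and was at 3302, 3193 and 3187 normalised counts in WT against 3155, 3563 and 3171 in LXR-DKO, with overlapping libraries (0.03, SE 0.08, limma adjusted p 0.927), while in Mertk-KO it was at 3865 and 4228 and rose (0.33, with an adjusted p just under 0.05). Rpl13a was one of the 3 members with the smallest difference in LXR-DKO, with Rpl10 (-0.30) and Rpl27 (-0.12). Within 5 Mb of Nr1h2, 6 of 115 tested genes rose (5.22%, beside 0.216% of all genes) and 1 fell (0.87%, beside 0.202%) in LXR-DKO. Rpl18 is among the 6. Nr1h2 itself, which is knocked out in this group, was called lower (-2.52, limma adjusted p 3.25e-08). In Mertk-KO 5 rose (4.35%, beside 3.38%) and 2 fell (1.74%, beside 5.89%).

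**Figure D4:**
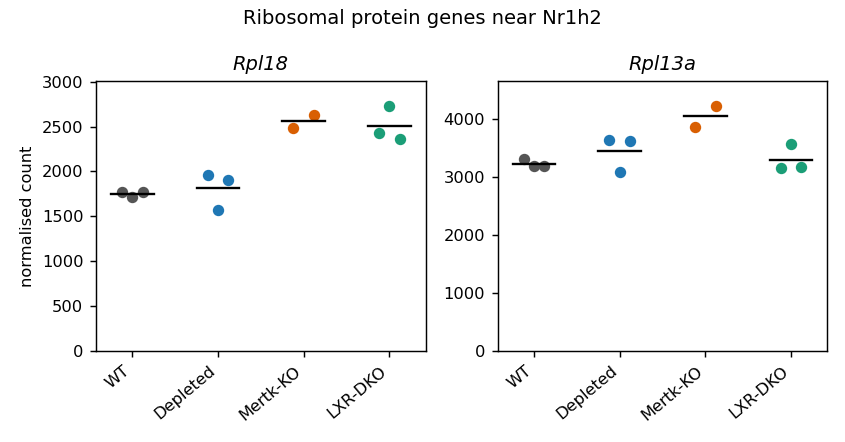
Normalised counts of Rpl18 and Rpl13a, which lie within 5 Mb of Nr1h2; each point is a library and bars are group means. Rpl18 is at 2364 to 2736 in LXR-DKO and 1712 to 1768 in WT, while Rpl13a is at 3155 to 3563 and 3187 to 3302.

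The perturbed groups were also compared with each other. Macrophage-depleted was lower than Mertk-KO in 22 members and higher in 0 (limma; 21.0% of all genes passed, 11.6% higher and 9.39% lower), with a median of -0.29. The libraries did not overlap in 47 members, all lower after depletion, beside 22.6% of all genes lower and 22.9% higher. Rpl18 (-0.50, limma adjusted p 0.00856), Rps27l (-0.51, adjusted p 0.0132), Rps2 (-0.42, adjusted p 0.0127) and Rpl32 (-0.44, adjusted p 0.0153) were among those called. With upper quartile scaling 5 members were lower, and 13.7% of all genes were called higher and 4.42% lower. The count of 22 became 14 when WT 3 was left out, 3 for Macrophage-depleted 2 and 13 for LXR-DKO 1. The share of all genes called lower was then 7.27%, 4.17% and 7.45%.

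Against LXR-DKO, the depleted hearts were lower in 1 member, Rpl18 (3.24% of all genes passed, 1.35% higher and 1.89% lower), with a median of -0.18. The libraries did not overlap in 33 members, all lower, beside 14.6% of all genes lower and 13.7% higher. The count of 1 became 0 when Macrophage-depleted 2, LXR-DKO 1 or LXR-DKO 2 was left out, 2 for LXR-DKO 3 and 4 for either Mertk-KO library. Mertk-KO and LXR-DKO differed in 1 member, Rpl27, higher in Mertk-KO (0.85, SE 0.20, limma adjusted p 0.0466; 2.46% of all genes passed, 0.684% higher and 1.77% lower), with a median of 0.08. In 9 members the libraries did not overlap, higher in Mertk-KO, beside 15.1% of all genes higher and 16.4% lower. The Rpl27 call was lost with any of WT 1, WT 2, Mertk-KO 2, the Macrophage-depleted or the LXR-DKO libraries left out, and when its copy was added.

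Near-identical copies made several members uncertain. Of the members' coding sequence, read in windows of 31 bases, a median of 96.8% also occurs in another annotated gene, and 80 of 81 members share at least 1 window. Rpl3l shared none. The TPM table lists 41 copies with a mean of at least 5 TPM, of which 33 are not in the count table.

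Rpl27, Rpl10 and Rps12 have copies with an identical coding sequence that the count table does list. Rpl27 itself was at 112, 107 and 72.1 normalised counts in WT, 152 and 166 in Mertk-KO and 85.6, 76.3 and 103 in LXR-DKO, while 89.6% to 95.3% of the joint reads in each library were given to Rpl27-ps3. Summed with that copy, Rpl27 differed from WT by 0.32 in Mertk-KO (limma adjusted p 0.0496) and 0.26 in LXR-DKO (adjusted p 0.295). Mertk-KO and LXR-DKO then differed by 0.06 (adjusted p 0.750). Rpl10, a late-joining protein of the large subunit, was at 409, 393 and 265 in WT and 279 and 641 in Mertk-KO, with 82.6% to 91.8% of reads in Rpl10-ps3. Rps12 was at 769, 941 and 941 in WT, but Mertk-KO 1 had 411 and Mertk-KO 2 had 1401. Rps12-ps3 took 76.6% of the joint reads in Mertk-KO 1 and 38.4% in Mertk-KO 2. Summed, Rps12 stood at 1656 to 1716 in WT and 1759 and 2273 in Mertk-KO (0.24, limma adjusted p 0.177, beside the members' median of 0.33). The TPM table splits the pair otherwise, with 58.0% and 57.0% in the copy in these libraries.

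Other members were low in Mertk-KO 1 as well, Rpl23, Rpl5 and Rpl30 among them. Rpl23 had 1881 normalised counts there, 3712 in Mertk-KO 2 and 2587 to 2823 over WT. Its copy Gm9794, listed in the TPM table alone, was also low in that library, with 248 TPM beside 454 in the other and 332 to 377 over WT. Rpl5, which binds 5S ribosomal RNA, was at 3130 against 4309, with 3332 to 3600 in WT. Rpl30 was at 1233 against 1941, with 1451 to 1509 in WT.

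Rpl34 was named after its values were seen, because the 2 deposited tables put it on opposite sides in LXR-DKO. In the count table the WT libraries held it at 1175, 1161 and 1034 normalised counts and the LXR-DKO libraries at 1449, 1587 and 1353, higher in all 3 without passing (0.38, SE 0.10, limma adjusted p 0.217). In the TPM table Rpl34 was at 288, 291 and 259 TPM in WT and 163, 177 and 136 in LXR-DKO (-0.82, adjusted p 0.0106), below every other library. The TPM table also lists Rpl34-ps1, a processed pseudogene on chromosome 6 (71124610 to 71124963, GRCm38), and the count table does not. Rpl34-ps1 was at 244, 268 and 249 TPM in LXR-DKO and at 0 in the 8 other libraries. The sum of gene and copy was 407, 445 and 386 TPM in LXR-DKO and 288, 291 and 259 in WT, and with copies summed Rpl34 was 0.56 higher (adjusted p 0.0377). The coding part of Rpl34, at chromosome 3, and of the copy are 99.4% identical, with T132C and C318G as the differences (Rpl34 base first, then that of the copy, counted from 1 at the first coding base). Coding bases 125 to 324 of both, from the GENCODE M21 transcripts (GRCm38) on the transcribed strand, are shown with the differing bases in capitals.
Rpl34: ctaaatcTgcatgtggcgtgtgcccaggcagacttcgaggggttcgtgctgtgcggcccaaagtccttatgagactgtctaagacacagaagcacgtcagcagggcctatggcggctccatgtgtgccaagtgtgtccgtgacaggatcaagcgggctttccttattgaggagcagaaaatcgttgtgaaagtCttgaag
Rpl34-ps1: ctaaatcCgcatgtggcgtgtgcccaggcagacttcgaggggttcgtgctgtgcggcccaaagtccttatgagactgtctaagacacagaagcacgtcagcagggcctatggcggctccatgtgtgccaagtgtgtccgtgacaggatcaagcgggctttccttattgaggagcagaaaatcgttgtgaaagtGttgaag
Between the marked positions the sequences have no other difference, so reads from this coding stretch that cover neither base fit both.

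**Figure D5:**
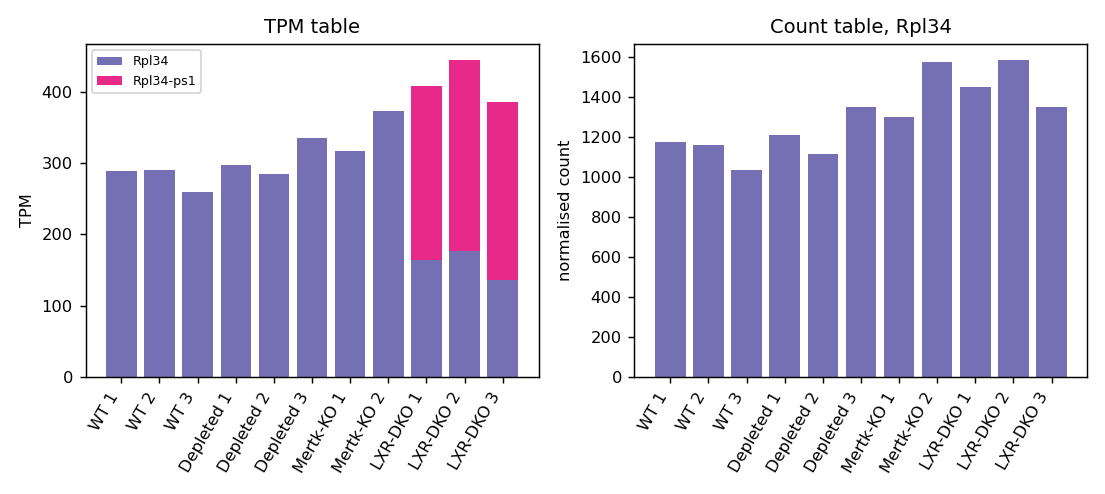
Rpl34 by library: left, TPM of Rpl34 and, stacked on it, of its pseudogene Rpl34-ps1; right, normalised count of Rpl34. Rpl34-ps1 appears in the 3 LXR-DKO libraries only, at 244, 268 and 249 TPM, where Rpl34 is at 136 to 177 TPM, while the normalised count of Rpl34 is at 1353 to 1587 there.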

How the data were processed

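Whole-heart polyadenylated RNA was amplified (Ovation Single Cell kit) and sequenced, per the labels' protocols; without molecular identifiers reads are not separate molecules, so floors of 3 reads cover counting error only. CASAVA 1.8.2, RSEM 1.2.20, kallisto 0.43.1, cutadapt and the GRCm38 build appear in the submitters' processing notes; the tool behind each table and the use of strand are not stated there. The first table is a signal, which the authors deposited as a normalised count scaled by library with 0.5 read added, as read from the values; this was undone and rescaled to the mean library. Between 57.2% and 61.5% of low values were whole within 0.01 read, so no count model was used. The second table is a signal deposited by the authors as rescaled TPM. Both hold all 11 libraries; no column was left unassigned.

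The 13884 genes averaging 10 or more normalised counts were fitted with limma 3.58.1 in R 4.3.3 on log2(normalised count + 1), 1 model for 4 groups, 7 residual degrees of freedom, two-sided, Benjamini-Hochberg adjusted over all genes at 0.05. Differences on this scale understate changes of low genes. The script was tested on simulated data. Annotation was GENCODE M21 on GRCm38. The members, lists and tests were chosen with earlier results of these data known. Named members were Rpl18, members near the liver X receptor genes, paralogs, stalk genes, the extremes of level and difference, and those with the smallest p; Rpl34 and its copy, Sphk2, Rps15a, Rps20, Gm9794, Rpl7a, Rpl27a, Rps6, Eif3a, Eef1d, Rack1, Fau and Rps3a1 were named after their values were seen. Some genes are not reported here by name; the counts include them. The design had assumed normalised counts and the test was kept. Sequences came from RefSeq promoters (GRCm38.p6) and GENCODE transcripts.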

Additional observations from a re-analysis of the deposited data

Results flagged for a closer look

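One signal lay outside the members and outside the count table on which the comparisons rest. It enters only the alternatives on the TPM table, as a gene of its own or, with copies summed, as part of Rpl34. The pseudogene Rpl34-ps1, listed in the TPM table alone, had a mean of 254 ± 12.7 TPM (SD, n = 3) in LXR-DKO and was listed at 0 in each of the 8 other libraries, controls included. It took 59.9%, 60.3% and 64.6% of the joint TPM of Rpl34 and Rpl34-ps1 in LXR-DKO 1, 2 and 3. The table gives no counts, so no floor for the listed zeros can be given.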

How the results depend on the processing

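The share of all genes called higher in Mertk-KO than in WT moved with the settings. With all libraries it was 3.38%, and 1.07% in the TPM table. Without a filter on low values it was 0.718%, and with the length and GC trend removed 1.01%. Of the results with other settings, the number of members higher in Mertk-KO than in WT (31) moved most. It was 6 in the TPM table, 8 without a filter on low values, 8 with upper quartile scaling, 14 scaled without mitochondrial transcripts, 9 after quantile normalisation, 0 with only the 2 groups, 0 with weights per library, 3 with the length and GC trend removed, 8 in the TPM table with copies summed and 0 scaled to the members; leaving out 1 library gave 0 to 68 higher and 0 to 2 lower. For LXR-DKO against WT (1 higher) it was 0 in the TPM table, where 1 was lower, 0 without a filter, 2 with only the 2 groups, 32 with weights per library and 0 scaled to the members, and 0 to 1 without 1 library. Of all genes, 0.216% were called higher in LXR-DKO with all libraries, 0.454% with only the 2 groups and 2.43% with weights per library. The members' medians moved by more than the spread between replicate libraries (0.12) with the trend removed (0.14 in Mertk-KO and 0.13 in LXR-DKO). Over left-out libraries they ranged from 0.23 to 0.47 in Mertk-KO.

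Macrophage-depleted against Mertk-KO (22 lower) gave 10 in the TPM table, 10 without a filter, 5 with upper quartile scaling, 9 scaled without mitochondrial transcripts, 11 after quantile normalisation, 0 with only the 2 groups, 0 with weights, 5 with the trend removed, 12 with copies summed in the TPM table, 0 scaled to the members (with 1 higher, Rpl5), and 3 to 52 lower and 0 to 4 higher without 1 library. Macrophage-depleted against LXR-DKO (1 lower) gave 1 higher in the TPM table, 9 lower with weights, 2 lower with copies summed in the TPM table, 0 scaled to the members, and 0 to 4 without 1 library. Mertk-KO against LXR-DKO (1 higher) gave 0 without a filter, with upper quartile scaling, scaled without mitochondrial transcripts, with only the 2 groups, with weights, with voom, with the trend removed, with copies summed in either table or scaled to the members, and 0 to 1 higher and 0 to 5 lower without 1 library. For Macrophage-depleted against Mertk-KO, the share of all genes called lower was 9.39% with all libraries. It was 5.49% in the TPM table, 3.61% without a filter and 4.42% with upper quartile scaling. Scaling without mitochondrial transcripts gave 5.72% and quantile normalisation 9.85%. With only the 2 groups it was 0.216%, with weights 0.749% and with the trend removed 5.02%. Against LXR-DKO, weights moved it from 1.89% to 8.15%. The cause of these changes between settings was not tested.

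With the replicate number as a block, Mertk-KO against WT had 3 members higher, LXR-DKO against WT 0 (limma adjusted p of Rpl18 0.0806), Macrophage-depleted against Mertk-KO 8 lower and Mertk-KO against LXR-DKO 0. The numbers do not pair the libraries: over 15 same-numbered pairs the correlation of deviations was -0.09 to 0.11, above 0.1 in 2. Over 2673 single-gene results of 33 genes, 183 lost and 31 gained the threshold. The sign differed in 73, of which 2 involved a value past the threshold: without Mertk-KO 1, Rpl23 was 0.44 and Rps12 0.67 higher in Mertk-KO, and without Mertk-KO 2 they were at -0.54 and -1.09. Such fits assume that the lone library varies like the other groups. Summing copies and scaling to the members were chosen after seeing the data. Depth limits mainly Rpl10l and Rpl39l.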
